A study of Mus musculus with 2 samples.

Results

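The genes described here handle lipoprotein uptake and cholesterol efflux, and their expression was measured in LSK cells of nondiabetic and STZ-induced diabetic mice. LSK cells are bone marrow cells that are negative for lineage markers and positive for Sca1 and ckit, and they include the hematopoietic stem cells. The members were 9 genes, Apoe, Abca1, Abcg1, Scarb1, Cd36, Lrp1, Nr1h2, Nr1h3 and Srebf2, listed by function and taken from 21360 genes that could be named on the array. Every non-control probe whose transcript identifier belonged to a member was used, which gave 12 probes on 21 spots: 6 members had 1 probe and 3 members had 2. All 12 probes are described below.

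The nondiabetic group was C57BL/6J mice without diabetes, and the diabetic group was C57BL/6J mice made diabetic with STZ (streptozotocin, a toxin of pancreatic beta cells). The labels give female mice for both groups, whereas the study's text describes males, and the labels give no age or time after STZ. Each group was 1 Agilent 1-colour array with RNA of 3 mice according to its label, so no difference between the groups has a replicate check and none was tested. A spot was taken as detected where the scanner software marked it as well above background, which held for 62.7% of non-control spots in the nondiabetic group and 63.9% in the diabetic group. Intensities are given before scaling, and each log2 ratio is diabetic over nondiabetic after each array was scaled to its 75th percentile. The ± after an intensity or a ratio is the error that the software's own model assigns to a spot. Repeated spots gave a second estimate of error: over 237 probes that were printed at least 5 times and measured on each array, the median SD among spots was 0.13 on the log2 scale, 0.25 for the dimmest probes and 0.07 for the brightest. Neither error contains the spread between mice, sorts or amplifications. The genes that define the gate were well above background on both arrays, with intensities of 4635 and 4735 for Kit and 475 and 701 for Ly6a, which encodes Sca1.

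Cells take up cholesterol in lipoproteins through endocytic receptors such as Lrp1 and through the scavenger receptors Cd36 and Scarb1. They remove it through the transporters Abca1 and Abcg1, which load it onto lipoprotein particles that carry apolipoproteins such as Apoe. Both arms are under transcriptional control. The liver X receptors, encoded by Nr1h3 (LXR alpha) and Nr1h2 (LXR beta), sense oxysterols and switch on efflux genes, and SREBP2, encoded by Srebf2, switches on uptake and synthesis when membrane cholesterol is low. In bone marrow, ABC transporters and Apoe are known to restrain the proliferation of stem and progenitor cells in mice.

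The start regions of 3 members are shown because they stand for the secreted carrier, the efflux arm and the sterol-sensing arm. The sequences are from RefSeq, build GRCm38.p6, read 5′ to 3′ on the strand of the gene, and end before the annotated start. Capitals mark the GC box (GGGCGG), the E-box (CACGTG), the sterol regulatory element (ATCACCCCA), the CCAAT box (CCAAT), the TATA box (TATAAA) and the LXR core motif (AGGTCA), searched on both strands. The Apoe stretch, chr7:19699189-19699438 on the minus strand, lies inside the span of a longer Apoe variant. The Abca1 stretch, chr4:53159989-53160145 on the minus strand, was shortened to the bases outside the gene model, and the Srebf2 stretch is chr15:82147019-82147268 on the plus strand.
Apoe: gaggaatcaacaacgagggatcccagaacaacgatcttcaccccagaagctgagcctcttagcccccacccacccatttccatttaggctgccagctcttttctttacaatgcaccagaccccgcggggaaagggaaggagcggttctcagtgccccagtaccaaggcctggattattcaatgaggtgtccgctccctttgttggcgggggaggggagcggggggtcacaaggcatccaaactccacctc
Abca1: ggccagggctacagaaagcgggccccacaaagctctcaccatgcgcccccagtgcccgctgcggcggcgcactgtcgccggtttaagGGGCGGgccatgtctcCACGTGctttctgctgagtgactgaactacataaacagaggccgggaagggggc
Srebf2: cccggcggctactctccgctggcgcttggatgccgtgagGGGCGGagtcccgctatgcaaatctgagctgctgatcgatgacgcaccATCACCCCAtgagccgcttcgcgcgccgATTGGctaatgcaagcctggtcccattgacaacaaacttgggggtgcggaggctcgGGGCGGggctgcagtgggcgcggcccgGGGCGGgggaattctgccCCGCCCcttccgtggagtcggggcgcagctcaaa

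The Srebf2 stretch held the sterol regulatory element, which SREBP proteins bind, together with 4 GC boxes and a CCAAT box. Of all 32851 mouse start regions in the table, which span 250 bases before and 50 after a start, 0.280% held this element and 35.7% held a GC box. The Abca1 stretch held a GC box and an E-box, and an E-box was in 7.15% of all start regions. The printed Apoe stretch held none of the motifs, and among the 3 Apoe windows the only match was a TATA box in another window. The LXR core motif was in 16.3% of all windows and, among members, in that of Cd36, while the full LXR element (2 copies of the core spaced by 4 bases) was in 0.015% of all windows and in no member's window. Windows were found for 7 members, without Abcg1 and Scarb1. A match describes letters in a window and is not evidence that a factor binds there. Only exact letters in these short windows were searched, so the lack of a match does not show that a gene has no such element.

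Apoe had the largest measured ratio among the members and was the only member gene whose ratio or bound reached 2-fold. Cd36, which has only a lower bound, cannot be ranked against it. Apoe encodes apolipoprotein E, the ligand that binds lipoproteins to endocytic receptors and accepts cholesterol outside the cell. Its probe (A_51_P171999, for NM_009696) was printed 10 times on each array. In nondiabetic LSK cells the 10 spots had a lowest intensity of 848, a median of 886 and a highest of 955. In diabetic LSK cells they had a lowest intensity of 2050, a median of 2092 and a highest of 2267. The lowest diabetic spot was thus above the highest nondiabetic spot. The log2 ratio was 1.13, which is 2.19-fold higher in diabetic LSK cells, with an SD between spots of 0.03 and a range from 1.09 to 1.18. The software's error for a spot was larger, at 0.20 on the log2 scale, and spans the 2-fold limit. These spots share 1 RNA pool per group, so their agreement is technical.

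**Figure D1:**
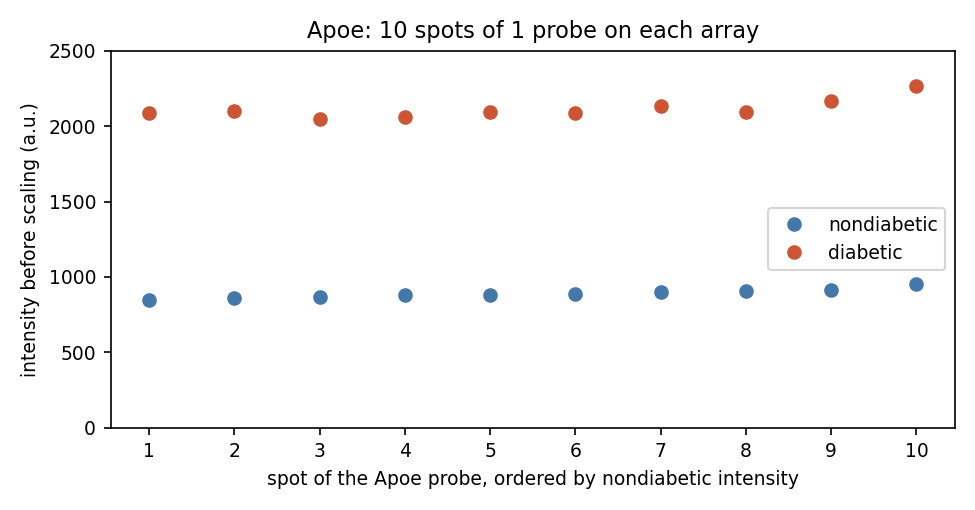
Intensity before scaling (vertical axis, arbitrary units, from 0) of the 10 spots of the Apoe probe on the nondiabetic and the diabetic array, in order of nondiabetic intensity. Nondiabetic spots lie between 848 and 955 and diabetic spots between 2050 and 2267.

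Against the whole array, the size of the Apoe difference was not rare. Of 32506 probes measured on both arrays, 7.37% had a log2 ratio at or above that of Apoe. Among the 237 probes printed at least 5 times, 20 were at least as high, 9.28% passed 2-fold upward in diabetic LSK cells and 12.2% passed it downward.

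**Figure D2:**
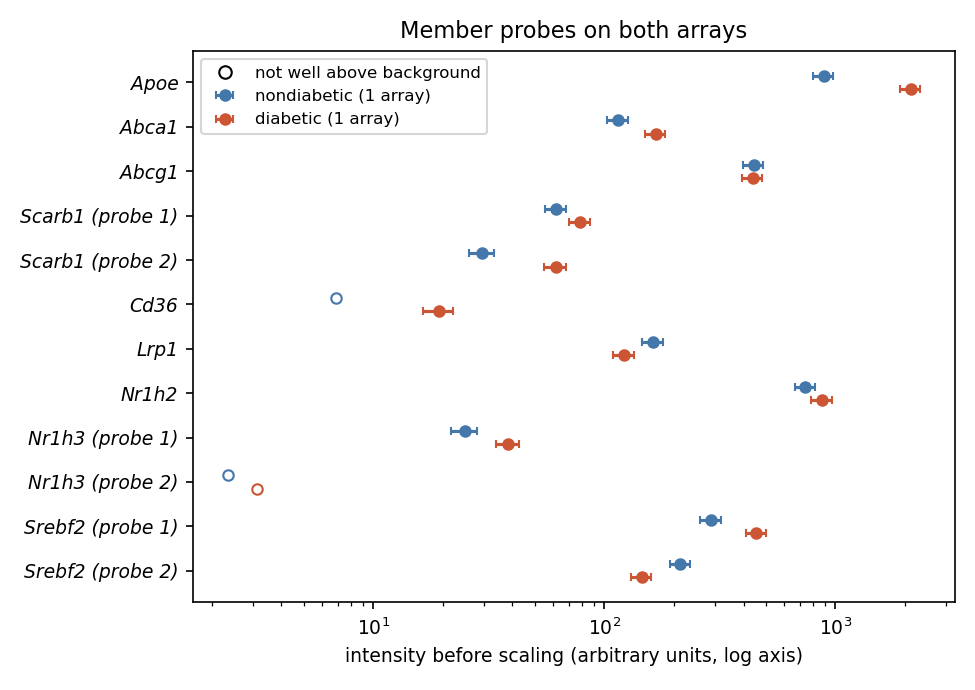
Intensity before scaling (horizontal log axis, arbitrary units) of every member probe on the nondiabetic and diabetic arrays, with bars for the error of the scanner software and open circles for probes not well above background. Among probes well above background on both arrays, Apoe, at 889 and 2113 as means over its spots on the log scale, shows the widest separation. Cd36, at 6.90 and 19.2, is separated more widely, but its nondiabetic value is not well above background. Abcg1 and Nr1h2 nearly coincide.

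By gene, with the brightest probe standing for each, 1 of 9 members passed 2-fold upward in diabetic LSK cells and 0 passed it downward. Over all 15200 named genes with a ratio or bound, 11.0% passed 2-fold upward and 10.1% downward, so the members' count was near the background. By probe, 1 of 11 member probes with a ratio or bound passed upward and 0 downward, against 11.2% upward and 11.2% downward among 37791 probes. The median log2 ratio of the 9 members was 0.43, beside a median of 0.02 over all named genes. Log2 ratios were above 0 for Apoe, Abca1, Scarb1, Cd36, Nr1h2 and Nr1h3, below 0 for Lrp1 and Abcg1, and on opposite sides of 0 for the probes of Srebf2. With 9 genes on 1 array per group, this median is a description and not a result about the list.

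**Figure D3:**
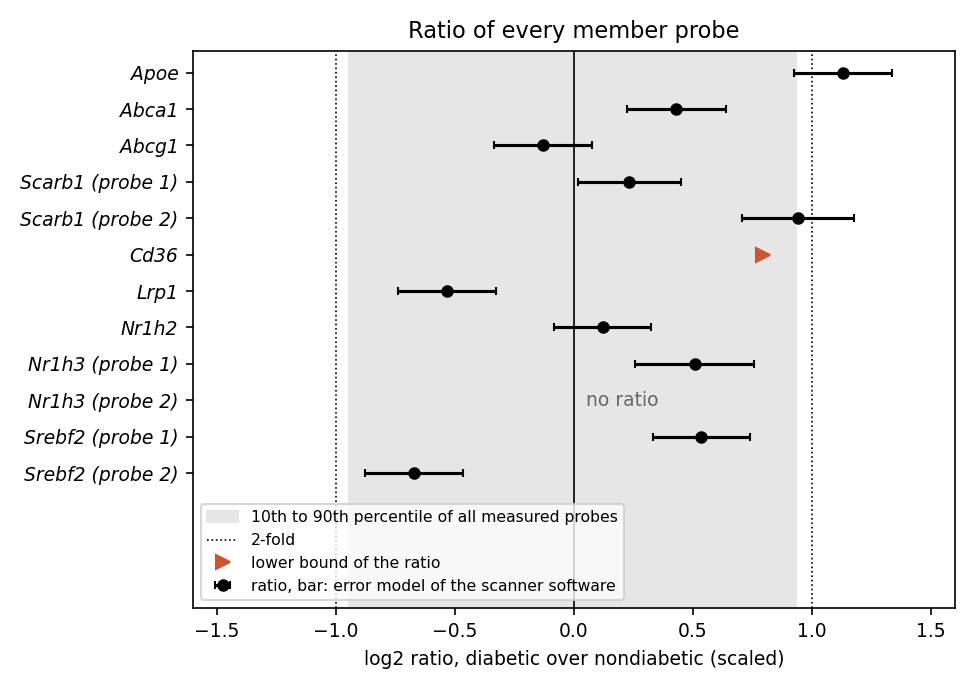
Log2 ratio of diabetic over nondiabetic (horizontal axis) of every member probe, with bars for the error of the scanner software, a triangle for a lower bound, dotted lines at 2-fold and grey shading for the 10th to 90th percentile of all measured probes, from -0.94 to 0.93. Of the measured ratios, only Apoe, at 1.13, and the dimmer Scarb1 probe, at 0.94, lie at or beyond the shading, and the Srebf2 probes lie on opposite sides of 0.

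Of the efflux transporters, Abca1 was higher in diabetic LSK cells and Abcg1 differed by less than its error. Abca1 moves cholesterol and phospholipid onto lipid-poor apolipoproteins, and its probe (A_52_P665675, NM_013454) gave 114 ± 12 in nondiabetic against 167 ± 17 in diabetic LSK cells. Its log2 ratio was 0.43 ± 0.21, which is 1.35-fold higher. Abcg1 passes cholesterol to mature HDL, and its probe (A_51_P222467, NM_009593) gave 442 ± 44 in nondiabetic against 438 ± 44 in diabetic LSK cells. Its log2 ratio of -0.13 ± 0.20 was smaller than its error. The Abca1 ratio exceeded its error and stayed well short of 2-fold, and 22.9% of all measured probes were at or above it.

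Among the receptors, Scarb1 (SR-BI), the HDL receptor that exchanges cholesterol with HDL in both directions, had 2 probes for NM_016741. The brighter (A_55_P2088965) gave 61.7 ± 6.6 in nondiabetic against 78.7 ± 8.2 in diabetic LSK cells, for a ratio on the log2 scale of 0.23 ± 0.22. The dimmer (A_55_P1954021) had 29.5 ± 3.7 and 61.5 ± 6.5, a log2 ratio of 0.94 ± 0.24. Both probes were higher in diabetic LSK cells, and they differed from each other by 1.63-fold, so the size of the Scarb1 difference depends on the probe.

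Cd36, a receptor for oxidized lipoproteins and long-chain fatty acids, was at the limit of detection. Its probe (A_51_P375146, NM_007643) had an intensity of 6.90 in nondiabetic LSK cells, not well above background, and 19.2 ± 2.9 in diabetic LSK cells. The Cd36 ratio had a lower bound of 1.74-fold, taken against the lowest intensity well above background on the nondiabetic array, 10.2. That bound leaves out the error of the spot. Under another background correction, which adds an offset of 50, the lower bound was 0.18 on the log2 scale. Lrp1, a large endocytic receptor that clears Apoe-bearing remnants, was lower. Its probe (A_51_P193794, NM_008512) gave 162 ± 16 in nondiabetic against 122 ± 12 in diabetic LSK cells, for a log2 ratio of -0.53 ± 0.21, or 1.45-fold lower. Lrp1 was the member with the lowest ratio by brightest probe, and 19.4% of measured probes were at or below it. Intensities of different probes are not comparable, so no order of levels among members is given.

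Of the liver X receptors, Nr1h2 differed by less than its error and Nr1h3 was higher in diabetic LSK cells by its detected probe. Nr1h2 had intensities of 741 ± 74 in nondiabetic and 875 ± 87 in diabetic LSK cells (probe A_55_P1978481, NM_009473), and its log2 ratio of 0.12 ± 0.20 was smaller than its error. Nr1h3 had 2 probes for NM_013839. The brighter (A_55_P2128597) had 24.9 ± 3.3 and 38.4 ± 4.4, a log2 ratio of 0.51 ± 0.25. The other (A_66_P120249) stayed near background on each array, with 2.34 and 3.14, and has no ratio. The Nr1h3 difference therefore rests on 1 dim spot per array.

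Srebf2, the sterol-sensing regulator of uptake and synthesis genes, gave opposite answers by probe, although both are assigned to NM_033218. The brighter probe (A_51_P377508) gave 289 ± 29 in nondiabetic against 455 ± 46 in diabetic LSK cells, for a log2 ratio of 0.54 ± 0.20. The other (A_55_P2000487) had 213 ± 21 and 145 ± 15, a log2 ratio of -0.67 ± 0.21. Each ratio exceeded its software error, and the probes differed from each other by 2.31-fold. The direction for Srebf2 is not settled by these arrays.

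The wider pathway was read through 98 further genes in 5 lists, of which 97 were named on the array and 81 had a ratio or bound. By brightest probe, 8 passed 2-fold upward in diabetic LSK cells and 11 downward, beside 11.0% and 10.1% of all named genes. With the mean over a gene's probes the counts were 8 and 7, and Lrpap1, Mbtps1 and Fdft1 had another probe with a ratio or bound above 0. The median log2 ratio was -0.11.

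**Figure D4:**
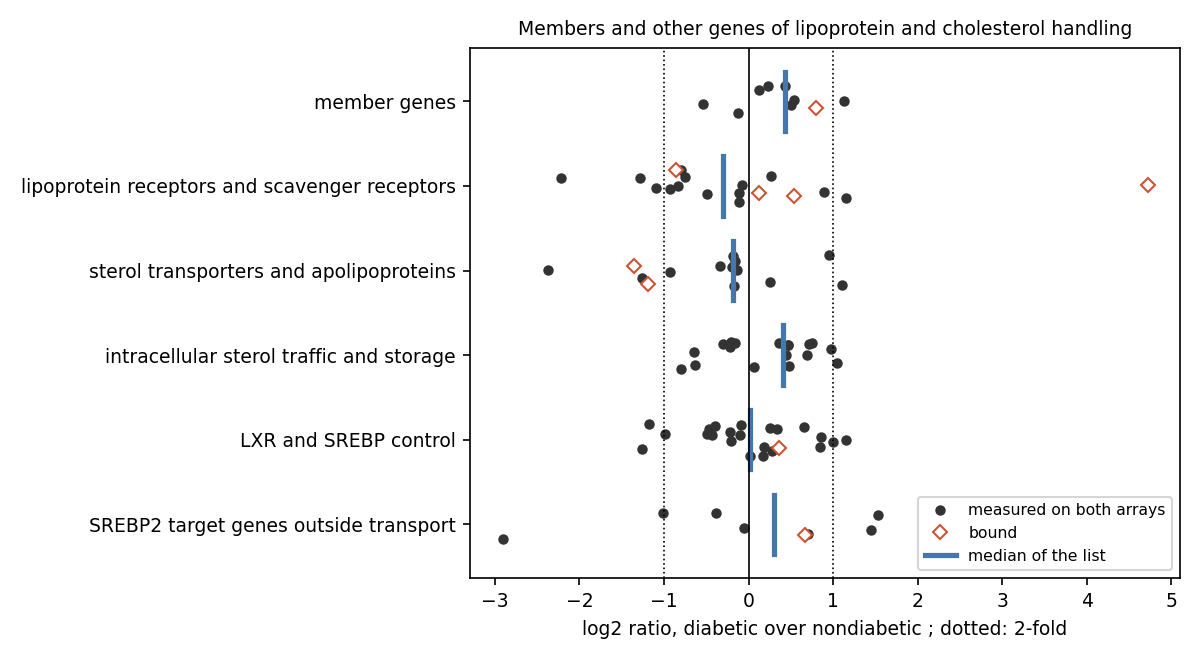
Log2 ratio of diabetic over nondiabetic (horizontal axis, dotted lines at 2-fold) of the members and of 5 lists of other genes, 1 point per gene by its brightest probe, with diamonds for bounds and a bar at each list's median. Medians run from -0.30 for receptors to 0.43 for members, and each list except intracellular traffic has genes beyond 2-fold on both sides or, for members, on the higher side alone.

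In the list of lipoprotein and scavenger receptors and their partners, 2 of 18 genes with a ratio or bound passed 2-fold upward and 3 downward. Mylip, an LXR target whose product degrades lipoprotein receptors, had 228 and 53.2, a log2 ratio of -2.22, and its other probe was at -0.48. Dab2, an endocytic adaptor of lipoprotein receptors, was not well above background in nondiabetic LSK cells (4.49) and had 292 in diabetic LSK cells, at least 26.4-fold higher. Cd68, a lysosomal scavenger receptor of macrophages, had a log2 ratio of -1.28. Lrpap1, the chaperone of Lrp1, had a log2 ratio of -1.10 by its brightest probe, while its other probe was at least 6.57-fold higher. Its direction is therefore also probe-dependent.

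Among sterol transporters and apolipoproteins, 1 of 14 passed 2-fold upward and 4 downward. Apoc1, an apolipoprotein gene beside Apoe, had 23.6 in nondiabetic LSK cells and 8.71, near background, in diabetic LSK cells, at least 2.55-fold lower, and Apoc2 of the same gene cluster had a log2 ratio of -0.16. The higher ratio of Apoe was thus not shared by these neighbours. Clu, which encodes clusterin, an apolipoprotein of HDL, had 148 and 31.1, a log2 ratio of -2.37. Abca2 had a log2 ratio of -1.26, with its other probe at -0.06, and Apob was at least 2.28-fold lower. Lpl, the lipase that hydrolyses lipoprotein triglyceride, had 21.0 and 49.0, a log2 ratio of 1.11. Its other probe, with 2.45 and 2.41, was detected on neither array and has no ratio.

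In intracellular sterol traffic and storage, 1 of 18 genes passed 2-fold upward and 0 downward, with a median log2 ratio of 0.40. That gene was Lipa, lysosomal acid lipase, which frees cholesterol from endocytosed esters, with 68.9 in nondiabetic against 154 in diabetic LSK cells and a log2 ratio of 1.05 ± 0.21. Npc1 and Npc2 export this cholesterol from lysosomes together, and their log2 ratios were 0.75 ± 0.21 and -0.65 ± 0.20. Soat1, which esterifies cholesterol for storage, had a log2 ratio of -0.30 ± 0.23.

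Of the LXR and SREBP control genes, 2 of 23 passed 2-fold upward, namely Med15 (2.23-fold) and Ppard (2.01-fold), and 2 passed it downward. Among the latter was Mbtps1, the site-1 protease that activates SREBPs, with a log2 ratio of -1.26 by its brightest probe and 0.91 by its other probe. Rxra, the partner of the LXRs, had a log2 ratio of -0.21 ± 0.26. Srebf1, itself an LXR target, had 130 and 131 and a log2 ratio of -0.10 ± 0.21. Scap, the SREBP escort, and Insig1, which holds it back, had log2 ratios of -0.22 ± 0.21 and 0.25 ± 0.27.

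Of the SREBP2 target genes of cholesterol synthesis, 2 of 8 passed 2-fold upward and 2 downward by brightest probe, and 1 of the latter, Fdft1, goes the other way by its other probe. Sc5d gave 32.8 in nondiabetic against 97.3 in diabetic LSK cells, for a log2 ratio of 1.45 ± 0.23. Idi1 had 2519 and 364, a log2 ratio of -2.91 ± 0.20, and Fdft1 one of -1.01 by its brightest probe and 1.55 by its other probe.

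Apoe, Cd36 and Lpl are also expressed by macrophages and other marrow cells, and in sorted bulk RNA a few cells with more of an RNA cannot be told apart from more RNA per LSK cell. The sort used a dead cell stain, a lineage antibody panel, c-kit and Sca-1, which are meant to exclude mature cells of these kinds. The study's text gives no purity of the sorted cells. Markers of other cell types were read on the same arrays. Of 12 monocyte and macrophage markers, 8 were detected in nondiabetic and 10 in diabetic LSK cells, 3 passed 2-fold upward and 0 downward, and the summed intensity of the list was 5653 and 5179, nearly all of it from Csf1r (5003 and 4284). The 3 were Cd5l, with 2.43 and 175 (at least 15.8-fold higher), C1qc, with 2.32 and 38.2 (at least 3.45-fold), and Spic, with 5.57 and 29.6 (at least 2.67-fold). Cd5l and Spic are genes of tissue macrophages, and none of these 3 was detected in nondiabetic LSK cells. The other 7 markers with a measured ratio were within 2-fold by their brightest probe, and Mertk has only a bound. Cd68, a macrophage gene counted in the receptor list and not in this one, had a log2 ratio of -1.28 (561 and 251). The log2 ratio was -0.10 for C1qb, -0.34 for C1qa, -0.72 for Cd14 and -0.63 for Lyz2. Csf1r was at -0.34, and its other measured probe at -1.17. Adgre1, which encodes F4/80, was at 0.94 and at least 2.86-fold higher by its other probe, and Mertk was at least 1.59-fold lower. Vcam1 was at 0.84, and its other probe was detected on neither array and has no ratio. The study's text places abnormal Vcam1-positive stem cells of diabetic mice among LSK cells. Vcam1 is therefore not a marker of macrophages alone here.

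**Figure D5:**
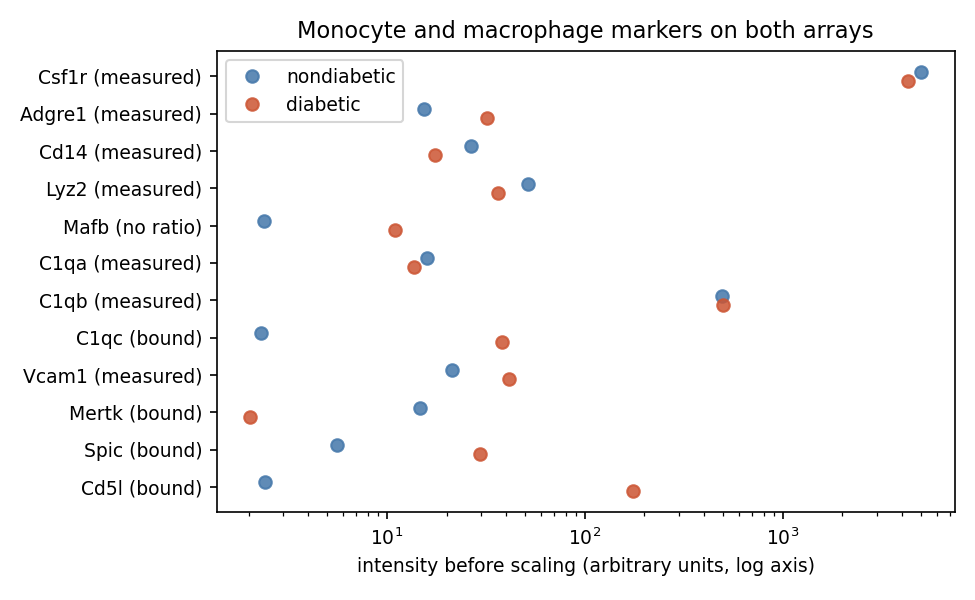
Intensity before scaling (horizontal log axis, arbitrary units) of the 12 monocyte and macrophage markers on the nondiabetic and diabetic arrays, with the kind of ratio in brackets. Cd5l, Spic and C1qc are separated widely, with the diabetic array higher, while C1qb nearly coincides and Csf1r, Lyz2 and Cd14 are lower on the diabetic array.

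In the stroma and adipocyte list, 2 of 4 markers with a ratio or bound passed 2-fold upward and 0 downward, beside 11.0% and 10.1% of all named genes. They were Fabp4 (at least 3.02-fold, from 3.51 to 33.5) and Lpl, by the 1 of its 2 probes that was detected. The defining genes Adipoq, Col1a1 and Pdgfra were detected on neither array. The summed intensity of that list was 75.7 and 139, a difference that comes mainly from Fabp4 and Lpl. In the erythroid list, 2 of 8 markers with a ratio or bound passed 2-fold upward and 0 downward, beside the 11.0% and 10.1% above. They were Hba-a1, at a log2 ratio of 1.21, and Slc4a1, at 1.98. The summed intensity was 6334 and 10490, with most of the difference from Hba-a1 (1984 and 4967). Hbb-bt, Alas2 and Tfrc had log2 ratios of 0.75, 0.35 and 0.14, with the other Tfrc probes at 0.08 and 2.05. Car2, Klf1 and Epor of the same list had log2 ratios of -0.18, -0.30 and -0.20. The part that such cells have in the Apoe, Cd36 and Lpl values was not tested.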

How the data were processed

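LSK cells were sorted from bone marrow, and RNA (8.3 ng per array, per the labels) was amplified, labelled with Cy3 and hybridized to 2 Agilent arrays, 1 per group. The authors deposited the scanner output of Agilent Feature Extraction 11.5.1.1, whose processed intensity is background-subtracted within the array and not normalized between arrays. The grid names build mm9, and no probe coordinates were used. They also deposited a table of processed intensities, in which each column equals the scanner intensity times a constant (log2 factors of 3.48 and 3.35), so that its scaling method is unstated and its direction known. Its column medians were 332 and 329.

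On the log2 scale, the 75th percentile of all non-control spots (168 and 182 as intensities) was subtracted per array. Spots with an outlier flag on either array were left out, no spot was saturated, and spots of a probe were averaged (55661 probes). A probe was detected where most of its spots were well above background. A probe detected on 1 array has a bound, taken against the lowest detected intensity (10.2 and 10.1) or, where higher, the dim value itself, and a probe detected on neither has no ratio. The ± combines the software's relative errors of both arrays for 1 spot. Probes were named through RefSeq transcripts of GRCm38.p6, which matched 53.7% of spots, and each gene was read through its brightest probe, by mean log2 signal. Single-array groups allow no test, and a 2-fold limit was used to describe size. Precision is limited by the number of arrays. No gene of like pattern was sought, since 2 arrays give 1 ratio per gene.

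The members and lists were chosen with earlier results of these data known. Named were all members with every probe, pathway genes chosen whatever their values (among them Lrpap1, Npc1, Npc2, Soat1, Lipa, Rxra, Srebf1, Scap and Insig1), and the pathway genes past 2-fold. Some genes that this rule names are counted in their lists and not reported here by name. Apoc2 and the named markers were added after their values were seen. Marker lists for LSK, granulocyte, megakaryocyte, B cell, T and NK cell and endothelial genes were also read: 1 of 12, 0 of 7, 1 of 5, 1 of 4, 0 of 4 and 1 of 5 genes with a ratio or bound were at least 2-fold higher, and 1, 1, 0, 0, 1 and 1 at least 2-fold lower. Over all named genes the shares were 11.0% higher and 10.1% lower. The functions were checked on simulated data. Python 3.11.15, numpy 2.4.6, pandas 2.3.3, R 4.3.3 and limma 3.58.1 were used.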

Additional observations from a re-analysis of the deposited data

How the results depend on the processing

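The counts and medians of the members and of all pathway genes, and the ratio of each member, were recomputed under up to 10 alternatives (9 for member probes and Cd36): normexp correction of the median spot intensities (offset 50), loess, quantile normalization, centring of the log2 ratios on their median, no filter on dim probes, only probes detected on both arrays, a floor at the lowest detected value, the mean over a gene's probes, outlier spots kept, and the authors' table of processed values. Apoe was the member past 2-fold under all 10, between 1.09 and 1.15 on the log2 scale. Several of these could not change it, since it has 1 probe, detected on both arrays with no spot left out. They were the settings for dim probes, the mean over probes and the outlier spots. Centring and the authors' table shift every measured ratio by a constant. With no filter on dim probes Cd36 joined Apoe at 1.36, which made 2 member genes and 2 member probes at least 2-fold higher. The lowest Cd36 value was a lower bound of 0.18, under normexp. Under normexp the median of the members was 0.20 by gene and 0.20 by probe, and 1 pathway gene passed 2-fold upward and 6 downward; the cause was not tested. With no filter 15 pathway genes were at least 2-fold higher, and with the mean over a gene's probes 7 were at least 2-fold lower. That mean also turned Srebf2 to -0.07 and took Scarb1 to 0.59. The lowest Scarb1 value was 0.04, under normexp. Abca1, Abcg1, Lrp1, Nr1h2 and Nr1h3 kept their sign and stayed within 2-fold under all 10. The settings that could not change Apoe could not change these ratios either. With the floor, the median over all probes was -0.14. No replicate could be left out with 1 array per group. No paired analysis was possible because no group holds more than 1 array. Single pathway genes, single lists and markers were not recomputed. Signal over background limits Cd36 and Nr1h3 most.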
